A study of Mus musculus with 8 samples.

Results

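LINE peaks are stretches of open chromatin whose centre lies in a long interspersed nuclear element, and 1636 of the 67822 peaks that the authors listed in mouse microglia were of this kind. They were chosen as every peak that the deposited annotation places in a LINE repeat, on chromosomes 1 to 19, outside promoters. A further 38 LINE peaks on other chromosomes were left out, and 0 of the LINE peaks on any chromosome carried a promoter annotation. The 1636 peaks made up 3.05% of the 53649 peaks outside promoters on these chromosomes. The choice used position and repeat name and no measured level.

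The assay was ATAC-seq, whose transposase cuts open DNA and leaves sequencing adapters there. It was run on CD11b+ microglia taken from the forebrain on magnetic beads. The knockout group held 4 libraries from Cias1-knockout mice, named Nlrp3-/- and obtained from Millennium Pharmaceuticals. The wild-type group held 4 libraries from mice with a C57BL/6N background. Nlrp3, also called Cias1, encodes the sensor protein of an inflammasome, the complex that activates caspase-1 and interleukin 1 beta. The sources used here do not give the background of the knockout line, the age and sex of the mice or any pooling of animals. Replicates are not stated to be separate animals. A p-value here therefore measures the spread between libraries alone, and that spread may be technical.

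LINEs are retrotransposons, elements that copied themselves into new places through an RNA that their own reverse transcriptase turned back into DNA. L1 is the family that is still active in the mouse. L2, CR1 (whose copies are named L3) and RTE copies are old fossils shared among mammals and no longer move. Within L1, names beginning L1M mark old copies found across mammals, names beginning Lx mark copies of rodents, and L1Md marks the youngest copies, those of the house mouse. Old fragments of repeats can hold binding sites of transcription factors and act as enhancers, and cells hold back active copies with DNA methylation, repressive histone marks and enzymes such as SAMHD1.

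L1 supplied 1202 of the 1636 peaks (73.5%), L2 345 (21.1%), CR1 77 (4.71%), RTE-X 11 and RTE-BovB 1. Among the L1 peaks, 627 lay in the L1M group, 539 in Lx and related rodent copies (named Lx, L1_Mur, L1_Mus, L1_Rod and L1VL), 30 in other L1 such as HAL1, and 6 in L1Md. All of those 6 bore an L1Md_F name, and their median level was 6.96 CPM. In all, 114 subfamilies had a peak. The subfamily with the most was Lx8 with 142 peaks, followed by L2a with 119, L2 with 112, Lx7 with 80 and L2b with 66. At the other end, 21 of the 100 L1 subfamilies had 1 peak each. How reads that match several places were counted is not stated in the sources used here, so low numbers in young, near-identical copies such as L1Md cannot be told apart from reads that were dropped.

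Some LINE peaks covered the start site of an annotated RNA or lay close to it. A reference window from 250 bases before to 50 after a RefSeq start site (GRCm38.p6, the assembly of mm10) overlapped 9 of the 1636 peaks, and all 9 starts belonged to long noncoding RNAs. No LINE peak carried a promoter annotation, so only starts that the deposited annotation did not mark as promoters could appear here. The kind of RNA at the 9 starts is thus bound to the labelling and is not a result about LINE peaks. The peaks at Gm40617, Gm34466 and Gm36459 reached into the window without covering the start itself. The sequences below are the overlaps of 4 of the other peaks with their window, with a strong and a weaker peak each from L1 and L2. They are shown because each is open DNA at a start site and holds the centre of its peak, on which the LINE label rests. The bounds of the repeat copy were not used here, so bases at either end may lie outside the LINE. Each is written 5′ to 3′ on the strand of the noncoding RNA, and capitals mark the word AGGAAGT or its reverse complement ACTTCCT, a form of the ETS-family site bound by PU.1, the myeloid lineage factor.
Gm41309 (L1MB7, chr15:38602237-38602471, minus strand): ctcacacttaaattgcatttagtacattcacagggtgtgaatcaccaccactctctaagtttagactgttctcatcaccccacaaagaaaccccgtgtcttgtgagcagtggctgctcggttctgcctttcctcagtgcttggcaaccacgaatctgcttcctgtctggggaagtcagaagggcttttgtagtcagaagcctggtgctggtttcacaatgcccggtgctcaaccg
Gm31619 (L2a, chr2:167589432-167589633, minus strand): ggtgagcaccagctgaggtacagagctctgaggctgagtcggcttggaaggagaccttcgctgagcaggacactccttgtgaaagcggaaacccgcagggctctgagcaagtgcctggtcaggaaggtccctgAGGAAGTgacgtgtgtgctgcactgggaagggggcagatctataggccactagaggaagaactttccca
Gm43837 (L1M2, chr5:64377769-64378002, plus strand): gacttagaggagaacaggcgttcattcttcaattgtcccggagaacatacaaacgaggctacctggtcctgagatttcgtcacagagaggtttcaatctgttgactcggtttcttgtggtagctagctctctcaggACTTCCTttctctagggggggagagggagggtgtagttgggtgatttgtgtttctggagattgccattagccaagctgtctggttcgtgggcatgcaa
Gm13657 (L2, chr2:75776684-75776905, plus strand): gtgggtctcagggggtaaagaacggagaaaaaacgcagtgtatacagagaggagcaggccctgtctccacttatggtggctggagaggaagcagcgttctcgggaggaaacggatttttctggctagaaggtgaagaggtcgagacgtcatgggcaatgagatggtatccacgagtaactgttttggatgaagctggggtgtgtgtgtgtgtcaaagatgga

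Searched on both strands in the whole windows, AGGAAGT was present in 2 of the 9, those of Gm31619 and Gm43837, against 9.35% of all 32851 windows of that length. TGACTCA, the core of the AP-1 site, was in 0 of 9 windows against 5.20% of all, and TGTGGTT, a RUNX site, in 0 of 9 against 5.27%. A match is a string of letters and not a measured site. Levels are given as CPM, the usual counts-per-million scale over tags in the listed peaks, after TMM scaling for composition. The peak over the Gm41309 start, in L1MB7, stood at 44.0, 63.1, 54.8 and 60.0 CPM in knockout libraries 1 to 4, against 57.4, 51.9, 49.1 and 52.7 CPM in wild-type libraries 1 to 4. Over the Gm31619 start, in L2a, the levels were 76.4, 30.9, 53.9 and 47.3 CPM in knockout and 56.9, 48.5, 43.7 and 47.3 CPM in wild type. Both peaks were open in all 8 libraries and their genotypes overlapped. The peaks at Gm43837 and Gm13657 were weaker, with means of 6.08 ± 2.29 and 4.58 ± 1.27 CPM in knockout against 7.68 ± 3.78 and 4.74 ± 2.46 CPM in wild type (SD, n = 4 each). The Gm13657 peak was too low to be tested, and the other 3 were not called between genotypes by edgeR's quasi-likelihood test (adjusted p = 0.9999 for each).

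The libraries held 11325865 to 15521580 tags each. The share of tags in listed peaks was 6.68, 4.96, 20.9 and 26.2% in knockout libraries 1 to 4 and 17.5, 9.79, 12.8 and 14.4% in wild-type libraries 1 to 4, so that a LINE peak held a median of 7, 6, 20 and 26 tags in knockout and 17, 13, 15 and 19 tags in wild type. LINE peaks with 0 tags numbered 16, 24, 3 and 1 in knockout and 0, 5, 1 and 0 in wild type. The deleted gene was as labelled in all 8 libraries: the promoter peak of Nlrp3 beginning at base 59541383 of chromosome 11 held 0, 0, 0 and 1 tags in knockout and 75, 58, 58 and 80 tags in wild type. All 10 microglial marker genes had a promoter peak, and their 13 peaks summed to 248 to 339 CPM in knockout and 278 to 290 CPM in wild type. Of 36 markers of other cell types in 6 lists, 9 had a promoter peak, and no list summed to more than 45.1 CPM in a library (endothelial, 4 peaks). These sums cover unlike numbers of peaks and do not compare levels per peak. The granulocyte and lymphocyte markers, 6 in all, had no promoter peak. In bulk libraries, fewer cells with a site open and less opening per cell cannot be told apart.

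In the deposited annotation all 1636 LINE peaks lay in introns or between genes, and so did every LTR and SINE peak compared here. Lying outside promoters was thus part of how these peaks were labelled and chosen. Of the 1636, 892 (54.5%) lay in introns and 744 (45.5%) between genes. Their median distance from the nearest start site was 22417.5 bp, close to that of peaks in LTR retrotransposons (21315 bp, 3601 peaks) and longer than that of peaks in SINE repeats (14166.5 bp, 1868 peaks) or of peaks in introns and intergenic DNA outside repeats (16840 bp, 40963 peaks). Within 10 kb of a start lay 26.3% of LINE peaks, against 40.04% of SINE peaks and 37.0% of those outside repeats. Farther than 100 kb lay 189 LINE peaks (11.6%), against 8.38% of peaks outside repeats. Among LINE families, L2 peaks were the nearest, with a median of 17109 bp and 35.1% within 10 kb. L1 peaks had a median of 23739 bp with 24.2% within 10 kb, and the rodent Lx group the longest of the large groups, 26029 bp. These are descriptions of 1 peak list and were not tested, since peaks are not replicates.

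**Figure D1:**
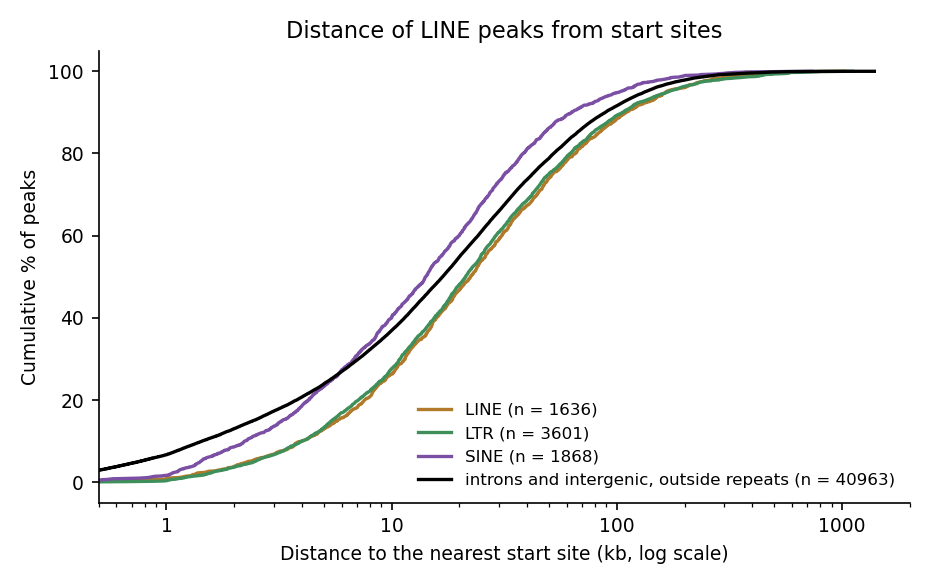
Cumulative percentage of peaks (vertical axis) by distance to the nearest start site in kb (horizontal log axis) for LINE, LTR, SINE and non-repeat intron and intergenic peaks. The LINE and LTR curves run together to the right of the SINE and non-repeat curves, with 26.3% of LINE and 27.6% of LTR peaks within 10 kb.

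LINE peaks were about as open as other distal peaks. Their median level, as the mean over the 8 libraries, was 8.31 CPM, with the middle of the distribution between 5.55 and 14.2 CPM. LTR peaks had a median of 8.12, SINE peaks 7.35, non-repeat intron and intergenic peaks 8.92 and promoters 16.4 CPM. Widths differed little (260 bp in LINE, 263 bp in LTR, 257 bp in SINE and 265 bp in non-repeat peaks, as medians), and per 100 bp of peak the medians were 3.03, 2.92, 2.75 and 3.13 CPM in the same order. Between LINE families the median per 100 bp was 2.98 in L1, 3.18 in L2, 3.34 in CR1 and 5.27 CPM in the 11 RTE-X peaks. Within L1, the L1M group had 3.09 and the Lx group 2.79 CPM per 100 bp. Their ranges overlapped widely, and 234 LINE peaks (14.3%) exceeded 20 CPM per peak.

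**Figure D2:**
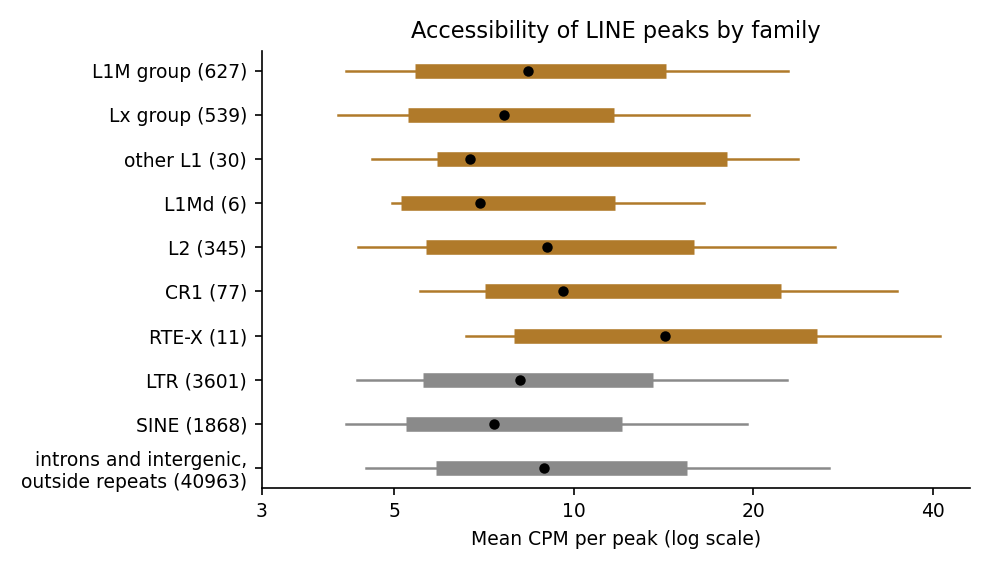
Mean CPM per peak over 8 libraries (log axis) for LINE families and groups (brown) and for LTR, SINE and non-repeat peaks (grey), with the number of peaks in brackets. Dots are medians, thick bars the 25th to 75th percentile and thin lines the 10th to 90th. Medians run from 6.71 CPM in other L1 to 14.2 CPM in RTE-X, beside 8.12 CPM in LTR peaks, and the bars of all groups overlap.

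The strongest LINE peaks had levels well above the median, with overlap between genotypes at each. The highest was an L1MB7 copy in an intron of Pip5k1c (chr10:81298732-81299043, 312 bp), a gene for a kinase that makes the membrane lipid PIP2. It reached 78.7, 80.0, 78.8 and 69.3 CPM in knockout libraries, against 86.5, 81.5, 69.3 and 69.7 CPM in wild-type libraries. Per 100 bp that was 24.6 CPM. The highest CR1 peak, an L3b copy in an intron of Laptm5 only 812 bp from its start, stood at 46.3, 54.7, 59.0 and 59.1 CPM in knockout and 60.7, 57.9, 52.4 and 50.01 CPM in wild type. Laptm5 encodes a lysosomal membrane protein of blood cells and microglia. The highest RTE-X peak, an L4_B_Mam copy in an intron of the semaphorin gene Sema4b, averaged 45.0 ± 4.36 CPM in knockout and 48.5 ± 4.04 CPM in wild type (SD, n = 4 each). The L2b peak assigned to Gm826 averaged 68.5 ± 8.81 against 63.3 ± 7.62 CPM, the L1MA4 peak near Plekho2 78.3 ± 16.2 against 74.5 ± 7.31 CPM, the L1M3 peak near Zfp658 73.8 ± 7.34 against 66.0 ± 10.7 CPM, and the Lx8 peak of AY512915 67.4 ± 12.4 against 59.7 ± 14.8 CPM, each as knockout against wild type. In all 7 the genotypes overlapped, and log2 fold changes of knockout over wild type lay between -0.09 and 0.21 (edgeR adjusted p = 0.9999 each).

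LINE peaks were spread thinly over genes. The deposited table assigned them to 1355 genes, of which 1140 had 1 LINE peak. Protein-coding genes were the nearest for 1382 peaks and noncoding RNA genes for 240. The gene with the most was Chd7, a chromatin remodeller, with 6 LINE peaks among its 46 peaks. AY512915 (5 of 16), Clasp2 (5 of 21), Csmd3 (5 of 18), Entpd1 (5 of 23) and Pag1 (5 of 40) followed. Entpd1 encodes CD39, the surface enzyme with which microglia break down extracellular ATP, and all 5 of its LINE peaks were intronic, each in another L1 subfamily, with mean levels from 8.61 to 32.5 CPM. Adjusted p was 0.9999 for every tested LINE peak of these 6 genes. LINE peaks made up between 1.74% of the peaks of chromosome 8 and 3.36% of those of chromosome 3.

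The comparison of genotypes asked whether loss of Nlrp3 goes with a change in the opening of peaks in LINEs. As a class, LINE peaks held 1.90, 1.90, 2.07 and 1.96% of all peak tags in knockout libraries 1 to 4, against 2.01, 1.90, 1.82 and 1.93% in wild-type libraries 1 to 4. The means were 1.96 ± 0.079% in knockout and 1.91 ± 0.077% in wild type (SD, n = 4 each). The difference of 0.046 percentage points was smaller than either SD, and the genotypes overlapped. It was 0.0090 points without knockout replicate 3, 0.015 without wild-type replicate 3, 0.077 without wild-type replicate 1, and 0.10 when knockout libraries 1 and 2 were both left out. LTR peaks held 4.19 ± 0.103% in knockout and 4.08 ± 0.203% in wild type, and SINE peaks 1.98 ± 0.085% and 1.93 ± 0.054% in the same order, with overlap as well.

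**Figure D3:**
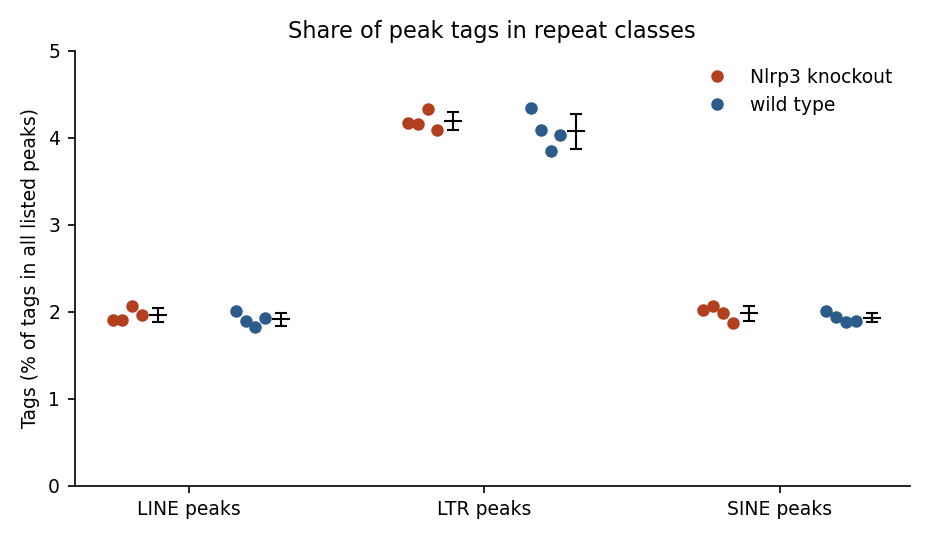
Share of all tags in listed peaks that fell in LINE, LTR and SINE peaks (%), with 1 point per library, knockout left of wild type, and mean and SD beside the points. LINE peaks lie between 1.82 and 2.07% in all 8 libraries and the genotypes overlap in each class.

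By family the sums overlapped likewise. L1 peaks summed to 13590 ± 626 CPM in knockout and 13288 ± 468 CPM in wild type, CR1 peaks to 1253 ± 26.4 and 1207 ± 68.2 CPM, and RTE-X peaks to 200.3 ± 25.4 and 209.4 ± 14.1 CPM. L2 peaks summed to 4617, 4402, 4797 and 4580 CPM in knockout, against 4658, 4288, 4195 and 4319 CPM in wild type. Wild-type library 1 lay among the knockout libraries and the other 3 wild-type libraries below them all. In the rodent Lx group the sums were 5537, 5700, 6069 and 5766 CPM in knockout and 5710, 5420, 5208 and 5463 CPM in wild type, again with only wild-type library 1 inside the range of the knockouts. The old L1M group showed no such order, at 7381 ± 389 CPM in knockout and 7391 ± 269 CPM in wild type, nor did SINE peaks. LTR peaks did, at 41892, 41399, 43327 and 41390 CPM in knockout and 43016, 40647, 38507 and 40366 CPM in wild type. In non-repeat intron and intergenic peaks, wild-type libraries 2 to 4 (529052, 511268 and 522434 CPM) also lay below every knockout (538756 to 549535 CPM). Wild-type library 1 lay above them there (552056 CPM). The order was thus not particular to L2 and Lx peaks.

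Peak by peak, 1318 of the 1636 LINE peaks had enough tags to be tested, 952 of them L1, 285 L2, 71 CR1 and 10 RTE-X. The other 318 were too low and carry no test. The knockout-only list of peaks passed for 32 of its 187 LINE members, the wild-type-only list for 130 of 252, and peaks on both lists for 1156 of 1197. At an adjusted p under 0.05 (edgeR's quasi-likelihood F test, Benjamini-Hochberg over all 58135 tested peaks), 1 LINE peak rose in the knockout (0.0759%), against 0.055% of all tested peaks, and 1 fell (0.0759%), against 0.115% of all. At an unadjusted p under 0.05, 57 LINE peaks were higher (4.32%) against 2.58% of all peaks, and 24 lower (1.82%) against 2.24% of all. The 4 libraries of one genotype did not overlap those of the other at 28 LINE peaks that were higher in knockout (2.12%, against 1.65% of all) and at 23 that were lower (1.75%, against 1.49% of all). Calls were therefore few and near the background share, while the unadjusted counts leaned to the higher side. That lean was not the same in every fit: with scaling to all tags 1 LINE peak had an unadjusted p under 0.05 and 0 of these were higher, and with the DESeq2 Wald test 27 of 46 were higher. Without knockout libraries 1 and 2, which had the lowest shares of tags in peaks, the same pair of LINE peaks was called.

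The median log2 fold change of knockout over wild type was 0.039 over the tested LINE peaks and 0.0024 over all tested peaks, and 54.6% and 50.3% of the values were above 0. By group it was 0.075 in the Lx group (59.6% above 0), 0.055 in L2, 0.0077 in CR1, 0.011 in RTE-X and 0.0030 in the L1M group (51.1% above 0). LTR peaks had 0.041 and SINE peaks 0.0087. The baseline of all tested peaks includes promoters, and a median over non-repeat intron and intergenic peaks alone is not given here. Their summed level was also higher in knockout, at 543059 ± 4761 CPM against 528703 ± 17212 CPM in wild type (SD, n = 4 each). All LINE peaks summed to 19647 ± 793 CPM and 19071 ± 705 CPM in the same order. A shift particular to LINE peaks is therefore not shown. The middle of the LINE distribution ran from -0.16 to 0.22, and 7 LINE peaks (0.531%) passed a 2-fold difference in either direction, against 0.731% of all tested peaks. Scaling to all tags in place of peak tags moved the median of all peaks to 0.094 and that of LINE peaks to 0.12. Over all the settings tried, the LINE median stayed above that of all peaks by 0.0084 to 0.056, and the Lx group stayed at 0.052 to 0.16. The LINE median was lowest without knockout replicate 3 (0.012, against 0.0033 over all peaks), followed by the fit without wild-type replicate 3 (0.022, against 0.0059 over all peaks). The L1M, CR1 and RTE-X medians changed sign between settings (-0.023 to 0.10, -0.021 to 0.099 and -0.15 to 0.11). The upper end of each of these ranges, and the 0.16 of the Lx group, came from scaling to all tags. In that fit the median of all peaks was itself 0.094.

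**Figure D4:**
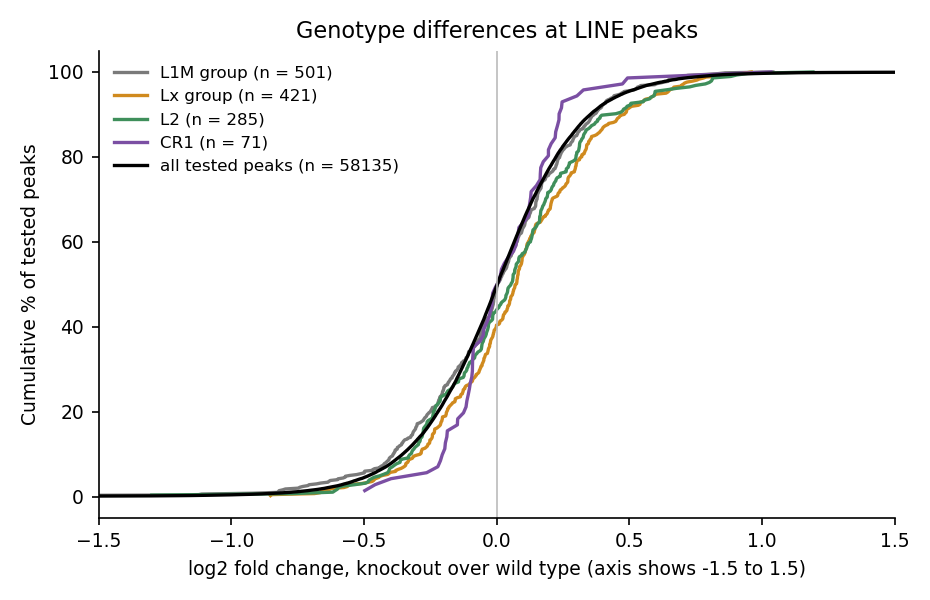
Cumulative percentage of tested peaks by log2 fold change, knockout over wild type, for L1M, Lx, L2 and CR1 peaks and, in black, all 58135 tested peaks. The curves lie close together, with the Lx curve (median 0.075) a little to the right of the black curve (median 0.0024) and the L1M curve (median 0.0030) on it.

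Of the LINE peaks, 187 (11.4%) were listed in the knockout alone, 252 (15.4%) in the wild type alone and 1197 (73.2%) in both, against 8.18%, 16.3% and 75.5% of all peaks. Peaks on 1 list were low, with medians of 4.21 CPM for the knockout list and 4.97 CPM for the wild-type list, against 10.6 CPM for peaks on both. The lists were called on these same libraries, so the median log2 fold change of 0.48 over the 32 tested LINE peaks of the knockout list and of -0.21 over the 130 of the wild-type list is set by how they were chosen. Over the 1156 tested LINE peaks on both lists the median was 0.048 with 56.3% above 0, against 0.011 and 52.0% for all tested peaks on both lists.

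The LINE peak that fell lay in an L1MB8 copy between genes, in a peak of 270 bp (chr11:118457065-118457334), 2204 bp upstream of the noncoding RNA gene Gm11747. Its levels were 13.9, 11.2, 8.00 and 9.02 CPM in knockout libraries 1 to 4, from 12, 8, 19 and 29 tags, and 37.3, 41.1, 42.6 and 33.5 CPM in wild-type libraries 1 to 4, from 78, 61, 78 and 75 tags. Every knockout library lay well below every wild-type library. The means were 10.5 ± 2.61 and 38.6 ± 4.08 CPM (SD, n = 4 each), a log2 fold change of -1.98 ± 0.21 (SE, edgeR adjusted p = 3.49e-06). The call held in each fit tried except with scaling to all tags, where the adjusted p was 1 and the log2 fold change -1.92. Few peaks of any kind were called with that scaling: over all tested peaks 3 were higher and 7 lower, against 32 and 67 in the main fit. The other 3 peaks of Gm11747, none in a LINE, summed to 25.5, 25.3, 32.9 and 33.6 CPM in knockout and 46.9, 50.5, 42.6 and 43.8 CPM in wild type, without overlap. The 2 of them that were tested did not pass (smallest edgeR adjusted p = 0.285). Nlrp3 itself lies on chromosome 11 too, but far from this peak, with a promoter peak beginning at base 59541383. Within 1 Mb of the L1MB8 peak, 5 of the 197 other tested peaks were called (2.54%, against 0.17% of all tested peaks in either direction). None of the 197 was a LINE peak, so no other LINE peak could be called there. The peaks assigned to Tnrc6c, Cep295nl, Dnah17 and Usp36 fell (log2 fold changes -2.30, -2.06, -1.85 and -1.53), and one assigned to Gaa rose (3.36). Genetic differences between the mouse lines on this chromosome were not tested and cannot be told apart from the genotype in this design.

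The LINE peak that rose was an L2 copy in a peak of 665 bp (chr17:26500674-26501338), 7466 bp from the start of Dusp1, which encodes a phosphatase that switches off MAP kinases. The levels were 37.0, 28.1, 36.2 and 20.5 CPM in knockout and 16.7, 11.5, 12.01 and 11.2 CPM in wild type. The lowest knockout library stood above the highest wild-type library. Means were 30.5 ± 7.77 CPM in knockout and 12.8 ± 2.62 CPM in wild type, a log2 fold change of 1.19 ± 0.23 (SE, edgeR adjusted p = 0.0143). The call was lost without knockout replicate 3 (adjusted p = 0.200), without wild-type replicate 2 (0.0700), 3 (0.0794) or 4 (0.0895), and with scaling to all tags (1.00), while the log2 fold change stayed between 1.04 and 1.41. Of the 22 other tested peaks of Dusp1, 0 were called by edgeR (smallest adjusted p = 0.0968) and 17 had a value above 0. Summed, the other 25 peaks of the gene stood at 712, 679, 634 and 605 CPM in knockout and 582, 517, 503 and 573 CPM in wild type, again without overlap. Within 1 Mb of the L2 peak, edgeR called 0 of the 153 other tested peaks.

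**Figure D5:**
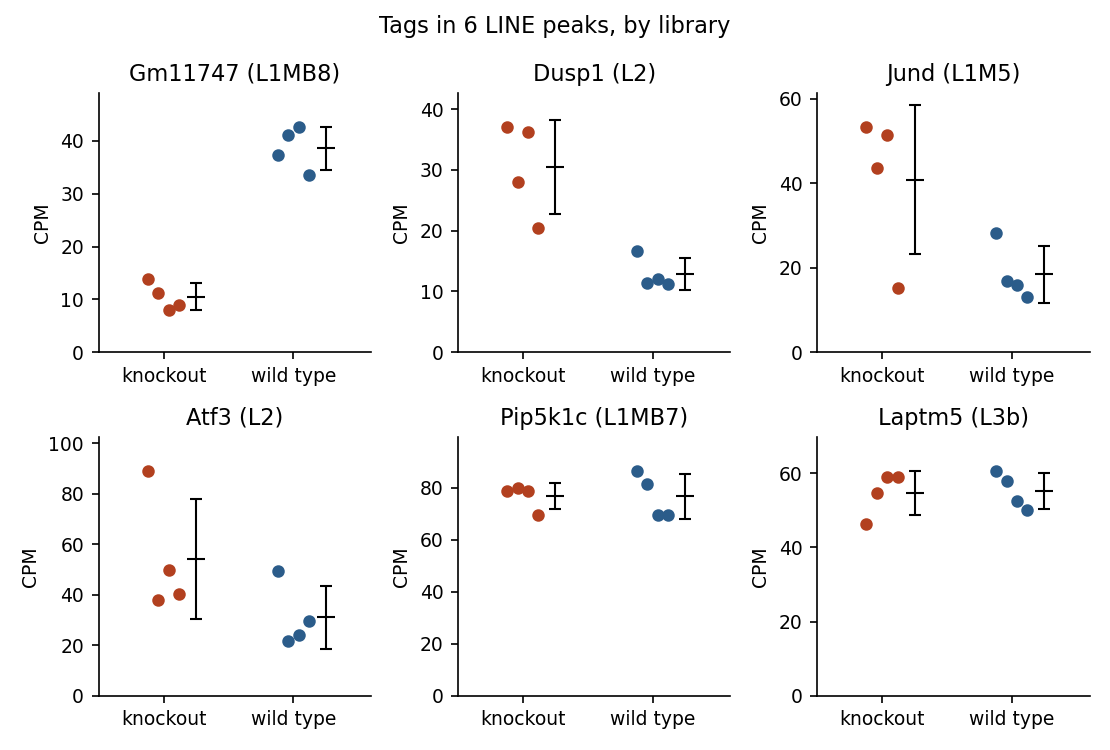
CPM in each library at 6 LINE peaks named by gene and subfamily, knockout left of wild type, with mean and SD beside the points. The genotypes separate at Gm11747 (10.5 against 38.6 CPM) and Dusp1 (30.5 against 12.8 CPM), overlap at Jund and Atf3, and lie together at Pip5k1c and Laptm5.

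The LINE peaks next in order of p did not pass the adjusted threshold. Of the 6 with higher values in the knockout, those of Jund and Atf3 overlapped between genotypes and had the largest SD in the knockout. The L1M5 peak 8335 bp from Jund, which encodes an AP-1 subunit (chr8:70705839-70706309), had 53.2, 43.5, 51.4 and 15.2 CPM in knockout and 28.2, 16.8, 15.8 and 12.9 CPM in wild type. Knockout library 4 lay with the wild types, and the fit gave a log2 fold change of 1.04 ± 0.30 (SE, adjusted p = 0.402). Without that library it was 1.42 (edgeR adjusted p = 0.000563). The other 13 peaks of Jund were again low in knockout library 4 and high in wild-type library 1, with sums of 1046, 1103, 1087 and 597 CPM in knockout and 806, 504, 441 and 536 CPM in wild type. The L2 peak in an intron assigned to Atf3, a stress-induced transcription factor (chr1:191175424-191176357), had 89.1, 37.9, 49.7 and 40.1 CPM in knockout and 49.2, 21.6, 24.02 and 29.5 CPM in wild type (log2 fold change 0.73 ± 0.24 SE, edgeR adjusted p = 0.680). Library 1 was the highest of each genotype there, and the genotypes overlapped. The other 18 peaks of Atf3 summed to 482 ± 30.7 CPM in knockout and 367 ± 31.5 CPM in wild type (SD, n = 4 each), without overlap.

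An Lx7 copy in an intron peak assigned to C030006K11Rik (chr15:76770366-76770811) averaged 21.7 ± 3.03 CPM in knockout and 12.5 ± 1.96 CPM in wild type, without overlap (log2 fold change 0.85, edgeR adjusted p = 0.166). The L2a peak in Luzp1 and the L1MD3 peak in Ldhal6b did not overlap between genotypes either, with log2 fold changes of 0.81 and 0.83, and the L2a peak assigned to Zfp462 had 0.81 with overlap. On the lower side, the L1ME1 peak in an intron of the calcium channel gene Cacna1a averaged 5.03 ± 2.47 CPM in knockout and 10.2 ± 1.74 CPM in wild type (log2 fold change -1.13, edgeR adjusted p = 0.449). The L2c peak of Zfp467 averaged 2.99 ± 1.93 against 7.53 ± 2.05 CPM (-1.30), and of the 4 other tested peaks of that gene 1 was called (log2 fold change -2.39, edgeR adjusted p = 5.75e-05). The L1MB7 peak of Mir874 (-0.66) and the L1MB3 peak of Rgs3 (-0.92), a regulator of G-protein signalling, did not overlap between genotypes. The L1M4 peak of Eif2a (-0.80) and the L1MC4a peak of Por (-0.83), which supplies electrons to cytochrome P450 enzymes, did. The 8 peaks named here without a p had edgeR adjusted p from 0.576 to 0.840.

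Tags were also summed over all peaks of each repeat subfamily, which gives the 114 LINE subfamilies more tags than single peaks have. Of the 671 subfamilies of all repeats that could be tested, 108 were LINE. None passed at an adjusted p under 0.05 in either direction (edgeR; 0 of 108 LINE, and 0.0% of all both higher and lower; DESeq2 called 0 LINE subfamilies). At an unadjusted p under 0.05, 3 LINE subfamilies were higher in knockout (2.78%, against 3.13% of all) and 3 lower (2.78%, against 2.38% of all). By name, the 3 on the higher side were rodent elements, and the 3 on the lower side old mammalian ones. None of them was called and their shares were near those of all subfamilies, so no pattern by age is read from them. Lx3C, with 2 peaks, had 19.7, 16.8, 14.7 and 15.9 CPM in knockout and 10.0, 11.5, 11.5 and 8.48 CPM in wild type, without overlap (log2 fold change 0.67, adjusted p = 0.466). Lx2, with 10 peaks, had 119, 107, 134 and 127 CPM in knockout and 109, 83.5, 86.8 and 104 CPM in wild type (0.36, adjusted p = 0.466). Without the pair of knockout libraries with the lowest share of tags in peaks, Lx2 was called (0.44, edgeR adjusted p = 0.0259). L1VL4, with 4 peaks, averaged 46.0 ± 5.59 CPM in knockout and 36.1 ± 2.905 CPM in wild type (0.33, adjusted p = 0.761).

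L1MB8, with 39 peaks, had 396, 389, 434 and 424 CPM in knockout and 455, 446, 440 and 486 CPM in wild type, without overlap (log2 fold change -0.15, edgeR adjusted p = 0.761). The Gm11747 peak is one of the 39. Without it the sums were 400.0 ± 23.98 CPM in knockout and 418 ± 24.5 CPM in wild type (SD, n = 4 each), and the genotypes overlapped. L1MC1 (-0.19) and L1MC4a (-0.23) overlapped between genotypes. The subfamilies with the most peaks showed small differences: Lx8 averaged 1697 CPM in knockout and 1639 CPM in wild type, L2a 1455 and 1390 CPM, L2 1446 and 1357 CPM, Lx7 850 and 812 CPM, and L2b 1039 and 1012 CPM.

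LINE peaks of genes with a role in microglia, in the inflammasome or in the control of LINEs were few, and edgeR called 0 of them. Of the 20 homeostatic microglia genes, 5 had 8 LINE peaks in all, 5 of which were tested (0 at an unadjusted p under 0.05, 0 by DESeq2). Their median log2 fold change was 0.22, against 0.048 over all 206 tested peaks of those 20 genes, of which edgeR and DESeq2 also called 0 and 10 (4.85%) had an unadjusted p under 0.05, against 4.83% of all tested peaks. The strongest was an L2 peak far from Sall1, which encodes a transcription factor that keeps microglial identity, with 60.2, 46.3, 69.5 and 87.1 CPM in knockout and 61.2, 43.1, 59.5 and 63.8 CPM in wild type, so that the genotypes overlapped.

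Of 20 myeloid transcription factors, 9 (Cebpa, Ets1, Etv6, Fli1, Irf8, Maf, Mef2a, Nfkb1 and Rel) had 13 LINE peaks, of which 11 were tested (1 at an unadjusted p under 0.05, 0 by DESeq2), with a median of 0.069 against 0.0083 over all 423 tested peaks of the list, of which edgeR and DESeq2 called 0 and 25 (5.91%) had an unadjusted p under 0.05. The strongest, an L1ME4b peak 8045 bp upstream of Mef2a, averaged 27.3 ± 10.6 CPM in knockout and 27.5 ± 5.23 CPM in wild type. Of 20 inflammasome and interleukin 1 genes, Aim2, Nek7 and Nlrp1b had 5 tested LINE peaks (0 at an unadjusted p under 0.05, 0 by DESeq2), with a median of 0.081. Aim2 and Nlrp1b encode sensors of other inflammasomes, and Nek7 a kinase that NLRP3 binds when it assembles. The Lx7 peak in an intron of Nek7 averaged 13.6 ± 2.88 CPM in knockout and 11.2 ± 2.77 CPM in wild type. The 97 tested peaks of that list included 2 that fell, and both were promoter peaks of Nlrp3, the deleted gene (log2 fold changes -7.43 and -6.56, edgeR adjusted p = 3.54e-11 and 6.12e-11).

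The list of genes that hold back LINE elements held 33 symbols, of which 31 had peaks. Fam208a and Tasor in it are names of 1 gene. Only Rnaseh2b and Samhd1 had a LINE peak, 1 each. Rnaseh2b encodes a subunit of the nuclease that removes RNA from DNA hybrids. Samhd1 depletes nucleotides and restricts L1 in human cells. The L2a peak 6955 bp upstream of Samhd1 was low, at 0, 2.81, 11.4 and 10.6 CPM in knockout and 9.56, 9.43, 6.01 and 9.82 CPM in wild type. In knockout library 1, 0 tags allow a level of up to 3.47 CPM (3 tags, counting error only). Over all 121 tested peaks of that list edgeR and DESeq2 called 0, with 12 (9.92%) at an unadjusted p under 0.05, against 4.83% of all tested peaks, and the median log2 fold change was -0.05. The list of sensors of nucleic acid held 14 symbols, of which 11 had peaks. Some genes stood under an old and a new name (Mb21d1 and Cgas, Tmem173 and Sting1, Ddx58 and Rigi). Ifi204, Ifih1 and Mavs had 1 LINE peak each, of which 2 were tested (0 at an unadjusted p under 0.05, 0 by DESeq2). The L1M5 peak 11336 bp upstream of Mavs, the adaptor of cytosolic RNA sensors, averaged 17.8 ± 6.23 CPM in knockout and 22.6 ± 4.64 CPM in wild type, with overlap. The 59 tested peaks of the sensor list gave 0 calls by edgeR or DESeq2, 2 (3.39%) at an unadjusted p under 0.05, and a median of 0.042.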

How the data were processed

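Per the labels' protocols, gel-cut fragments spanned 165 to 250 bp, and single-end reads had 51 cycles. Bowtie2, HOMER and DESeq2, with the build mm10, appear in the submitters' processing notes. Per the file headers, the authors merged a knockout and a wild-type IDR peak list and counted tags with HOMER, at most 3 per position, without adjusting to library size, so the deposited values used here are raw counts per peak and library. Not given in the sources used here are alignment and multi-mapping settings, read shifting and duplicate removal. HOMER assigns a repeat and a gene to a peak, and the gene named need not be its target. The deposited normalized table was not used.

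Counts of all peaks were fitted with edgeR 4.0.16 (R 4.3.3): TMM scaling, filterByExpr at a minimum count of 10, quasi-likelihood F test with genotype as the only term in 4 knockout and 4 wild-type libraries, Benjamini-Hochberg adjustment over all tested peaks. SE is the log2 fold change divided by the root of F. Repeat subfamilies were fitted the same way on summed counts. The procedure was tested on simulated data. DESeq2 1.42.0, other scalings, filters and left-out libraries were the alternatives. Named peaks were those called, in each direction the 6 uncalled peaks of smallest p, the highest in level overall and by family, and the highest of each gene list. The members, gene lists and rules were chosen with earlier results of these data known. Same-numbered libraries of the 2 genotypes correlated only weakly (-0.0078 to 0.15), so the numbers were not used as pairs in the main fit. Over LINE peaks no 2 libraries agreed within sampling noise (chi-square per degree of freedom at least 1.21). The closest pairs were knockout 1 with 2 (1.21) and knockout 3 with 4 (1.26). Knockout 1 was closer to every wild type (1.37 to 1.535) than to knockout 3 (1.548) or 4 (1.69). The same held for knockout 2 (1.45 to 1.686, against 1.702 and 1.94). Chromosome Y held 9, 2, 88 and 1 tags in knockout libraries 1 to 4 and 9, 13, 201 and 255 in wild-type libraries 1 to 4. The libraries thus differed widely within each genotype. Sex was not a term, and a difference in sex between libraries was not tested. Start-site sequences came from RefSeq (GRCm38.p6). No genome sequence was used, so sequence elsewhere in LINE peaks was not analysed here.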

Additional observations from a re-analysis of the deposited data

Results flagged for a closer look

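Of 86 groups of 4 libraries examined (52 at the named peaks, 22 at the named subfamilies and 12 in shares of tags), 5 had 1 library far from the other 3 of its genotype, all of them at named peaks, by a rule that chance meets in about 1 in 20 groups. At the Dusp1 L2 peak, wild-type replicate 1 had 16.7 CPM, above 11.2 to 12.01 CPM in the other wild types and below every knockout. At the Zfp462 L2a peak, knockout replicate 2 had 11.2 CPM, against 16.5 to 17.4 CPM in the other knockouts. At the Pip5k1c L1MB7 peak, knockout replicate 4 had 69.3 CPM, against 78.7 to 80.0 CPM. At the Nek7 Lx7 peak, wild-type replicate 3 had 7.10 CPM, against 11.95 to 12.9 CPM, and at the Samhd1 L2a peak the same library had 6.01 CPM, against 9.43 to 9.82 CPM.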

How the results depend on the processing

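The count of LINE peaks that rose (1) became 0 with scaling to all mapped tags, 3 with a replicate block and 0 to 2 when each library was left out in turn. The count that fell (1) became 0 with scaling to all mapped tags and 1 to 2 with a library left out. The cause was not tested. Under the replicate block the 3 were the peaks of Dusp1 (adjusted p = 0.00293), Jund (0.0136) and Atf3 (0.0247), with the Gm11747 peak still lower, and over all peaks 65 rose and 76 fell, against 32 and 67 without the block. No pairing by replicate number is stated in the sources used here. Same-numbered libraries correlated weakly, at -0.0078, 0.096, -0.0078 and 0.15, and 2 of 4 knockout libraries correlated best with their own number. Whether the numbers mark pairs cannot be told from these values. Without knockout replicate 4 the Jund peak was called higher and an L1_Mus3 peak of Gcnt1 lower (log2 fold change -2.54), and without wild-type replicate 4 an L1MC peak of Cep72 was called higher (3.86) while that of Dusp1 was not. The number of LINE subfamilies called higher went to 1, Lx2, against 0, without the 2 libraries of lowest share of tags in peaks. The median log2 fold change of LINE peaks was 0.12 with scaling to all mapped tags, against 0.039. The difference in the LINE share of tags (0.046 percentage points) ran from 0.0090 to 0.077 with a library left out and was 0.10 without those 2 libraries, each within 1 SD (0.078) of its value. Of 387 values of the 26 named peaks under alternatives, 378 kept their direction and side of the threshold where called, 6 lost a call and 3 gained one, 0 called values changed sign, and 16 uncalled values did. Depth limits the single peak: in knockout libraries 1 and 2 a LINE peak held a median of 7 and 6 tags, and 318 LINE peaks were too low to test.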
